A study of Mus musculus with 6 samples.

Results

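The epidermal differentiation complex is a dense cluster of genes for the proteins that build the cornified surface of stratified epithelium, together with many genes of the S100 calcium-binding family. Its members were taken from the authors' deposited table by symbol: the small proline-rich genes (Sprr), the late cornified envelope genes (Lce), the S100a genes, the genes of the fused S100 type (Flg, Hrnr, Tchh, Rptn, Crnn and their relatives), loricrin (Lor) and involucrin (Ivl). This gave 38 of the 15648 genes in the table: 7 of the fused type or single envelope proteins, 15 Lce, 7 Sprr and 9 S100a genes. Of 59 protein-coding genes in the annotation (GENCODE M21) whose symbols fit, 37 are in the table and 22 are not, and the remaining member, Sprr2g, is annotated as a pseudogene. The table lists no gene whose geometric mean over both groups is below 1.006, so members low in both groups are not analysed here.

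The tissue was the intermolar eminence of the tongue, the raised part of the dorsal tongue between the molars, of C57BL/6 mouse embryos at E17.5. There were 3 libraries of wild-type genotype (WT) and 3 of the genotype Fst-KO, mutants of the gene for follistatin, a secreted antagonist of activins and some bone morphogenetic proteins. Neither the mutant allele nor the number of embryos per library is given in the sources used here. The table holds 1 mean per group, their ratio, a p-value and a false discovery rate (FDR), and no value per library, so no spread could be given beside a mean and no single library could be examined. Nothing says that the 6 libraries come from separate animals, so the spread behind the p-values may be technical.

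Facts of the whole table bear on every value below. The targeted gene, Fst, did not follow its label: its mean was 69.7 in the mutant group and 33.2 in WT (authors' deposited table). By the authors' gene-specific analysis its p-value was 4.31e-06 and its FDR 0.0158. The mutant group is therefore named by its label throughout. Most genes were slightly higher in that group: 81.0% had a ratio above 1, and the median ratio was 1.14, or 0.18 on the log2 scale. Ratios are therefore also given as multiples of that overall median ratio. The labelled tissue is tongue epithelium. All 7 listed markers of the basal layer of stratified epithelium and all 7 of suprabasal oral epithelium are in the table. So are all listed macrophage, Schwann cell and endothelial markers, so presence alone does not single out epithelium. All 12 skeletal muscle and all 10 mesenchyme markers are in the table too, so the dissected tissue held more than epithelium. In such bulk tissue, fewer cells of a type and less RNA per cell cannot be told apart.

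In the last steps of keratinocyte differentiation, transglutaminases cross-link involucrin, loricrin, Sprr and Lce proteins into an insoluble envelope beneath the plasma membrane. Proteins of the fused S100 type, which join a calcium-binding S100 domain to long repeats, are stored in granules or bind keratin filaments and the envelope. The dorsal tongue keratinises in this way, above all on its filiform papillae, where trichohyalin and repetin are known products. The S100a genes at both ends of the cluster encode small calcium sensors, several of which are expressed in mesenchyme and blood cells as well as in epithelium.

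The members divided by subfamily. All 7 genes of the fused type or single envelope proteins and all 15 Lce genes had a ratio below 1, the Sprr genes lay on both sides, and 8 of 9 S100a genes had a ratio above 1. In all, 26 of 38 members (68.4%) had a ratio below 1, against 19.0% of all genes, and 8 members had a ratio below 0.5, against 0.435% of all genes. The median ratio of the members was 0.743, which is 0.654 times the overall median ratio. None of the 38 passed an FDR of 0.05 by the authors' gene-specific analysis, a threshold that 0.0959% of all genes passed. The lowest FDR among the members in the authors' deposited table was 0.143, for Sprr2a2, followed by 0.161 for Hrnr. At an FDR of 0.25, 3 members passed (1.58% of all genes did). At an unadjusted p under 0.05, 7 members were lower (18.4%, against 2.17% of all genes) and 5 were higher (13.2%, against 13.4% of all genes). When the limit was an unadjusted p of 0.01, 4 lay on the lower side and 3 on the higher, against 0.786% and 2.7% of all genes. The share of higher members at the first of these limits thus lay at the background, while the share of lower members lay above it. At the limit of 0.01, both the 4 lower and the 3 higher of the 38 members were a larger share than among all genes. Members of a family share sequence and the same cells, so these counts are not of independent genes. Over the 16 members whose transcripts share no 50-base window with another gene, 5 were lower and 2 higher at an unadjusted p under 0.05. The median depended on which families were counted: on the log2 scale it was -0.43 over all members and -0.089 over the 16 that are neither Lce nor Sprr.

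**Figure D1:**
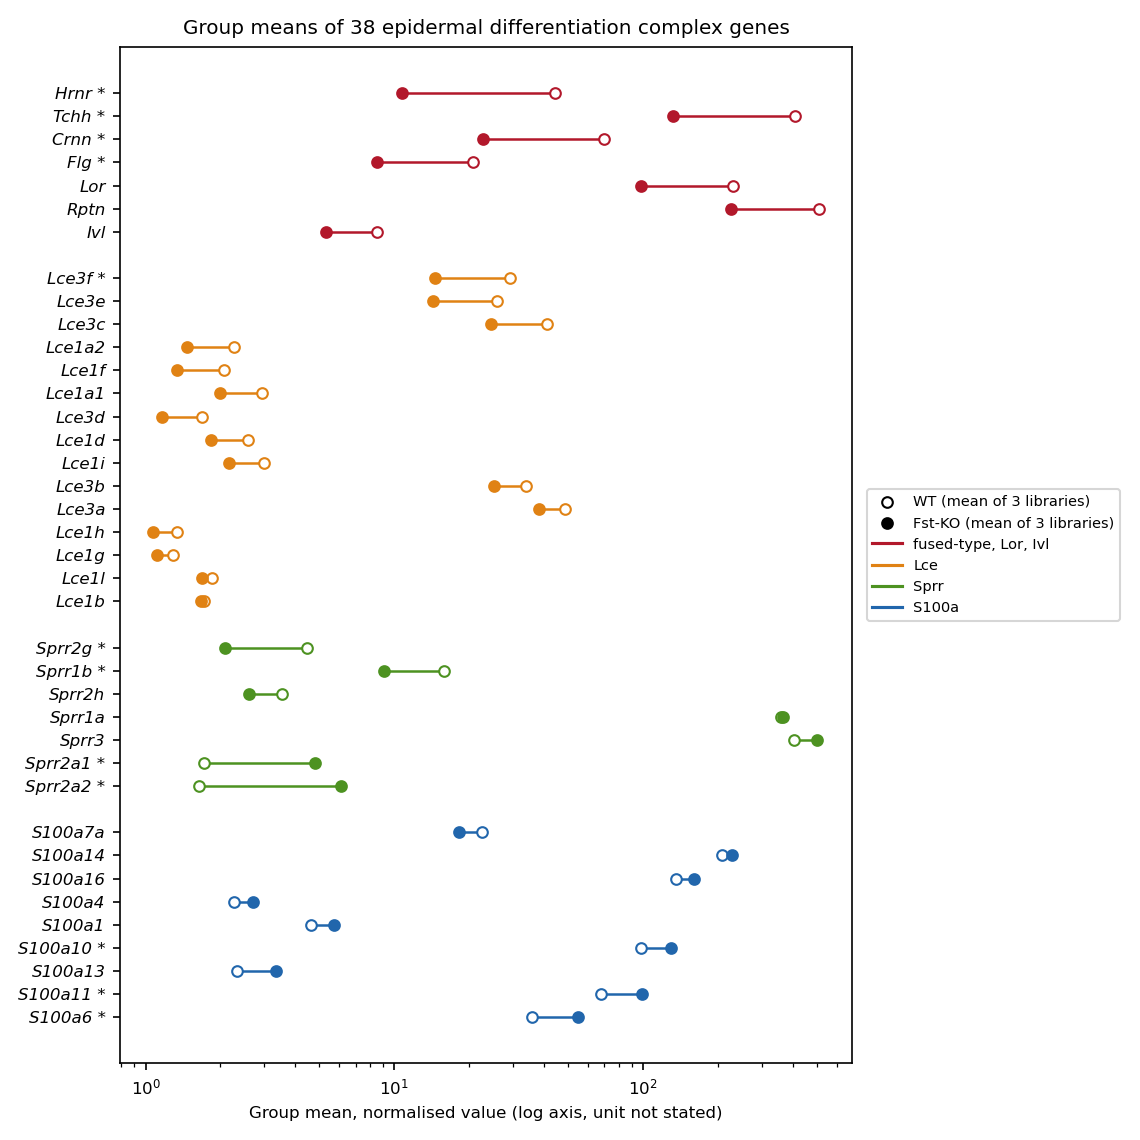
Group means of the 38 members on a log axis, in the deposited normalised unit, with open circles for WT and filled circles for the libraries labelled Fst-KO, each the mean of 3 libraries; a star marks an unadjusted p under 0.05 and no error bar could be drawn. All 22 genes of the upper 2 blocks have the filled circle on the left, and 8 of the 9 S100a genes have it on the right.

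The genes of the fused S100 type stood lowest. Hornerin (Hrnr), a filaggrin-like protein of the cornified layer, had a mean of 10.8 in the libraries labelled Fst-KO and 44.1 in WT, for a ratio of 0.244 (p-value of 0.000838, authors' deposited table). It was the 7th lowest ratio among all 15648 genes. Trichohyalin (Tchh), which cross-links keratin filaments in filiform papillae and in the hair root sheath, had means of 132 and 409, for a ratio of 0.323 (p-value of 0.00506, authors' deposited table). Cornulin (Crnn), a marker of oral and oesophageal epithelium, had means of 22.7 and 69.7, for a ratio of 0.326 (p-value of 0.0103, authors' deposited table). These were the 10th and 11th lowest ratios of the table. Filaggrin (Flg), which bundles keratin filaments and is broken down into moisturising amino acids, had means of 8.56 and 20.7, for a ratio of 0.413 (p-value of 0.00713, authors' deposited table). The FDR of Hrnr was 0.161, that of Tchh and Flg 0.279 and that of Crnn 0.289 in the authors' deposited table.

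The other 3 genes of this class were lower by similar or smaller ratios with higher p-values. Repetin (Rptn), another fused-type protein of tongue papillae, had means of 225 and 509, for a ratio of 0.443 (p-value of 0.0562, authors' deposited table). Loricrin (Lor), the main envelope protein of the epidermis, had means of 98.4 and 229, for a ratio of 0.429 (p-value of 0.125, authors' deposited table). Lor and Flg thus had nearly the same ratio, and only Flg had a p-value under 0.05. Involucrin (Ivl), an early scaffold of the envelope, had means of 5.33 and 8.54, for a ratio of 0.624 (p-value of 0.111, authors' deposited table). The median ratio of the 7 genes was 0.413, which is 0.364 times the overall median ratio, and 6 of them lay below 0.5. Flg2 and Tchhl1, the other annotated genes of this type, are not in the table. Sequence shared with other genes was low here: of the distinct 50-base windows of their annotated transcripts, at most 0.482% occurred in another gene's transcripts. Repeats within a gene were not counted as shared. Hrnr had 4559 distinct windows for a longest transcript of 11187 bases, Flg 8721 for 14497 and Tchh 5404 for 5823. How reads from such repeats were counted is not known.

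The sequence before the start is shown for 3 of these genes, which were low together and lie near each other in the cluster. Tchh was as low as Crnn and lies in the same part of the cluster, but its stretch is not printed. The 200 bases directly before the start in the RefSeq promoter table (GRCm38.p6, the assembly of mm10) are given 5′ to 3′, with matches to the TATA box letters TATAAA and to the AP-1 letters TGANTCA in capitals, on either strand. They lie at chr3:93319549-93319748, chr3:93273346-93273545 and chr3:93144589-93144788, all on the plus strand. GENCODE places the start of Flg at 93273523 and that of Crnn at 93144787. The 3′ ends of the stretches printed for Flg and Crnn thus lie inside those gene models.
Hrnr: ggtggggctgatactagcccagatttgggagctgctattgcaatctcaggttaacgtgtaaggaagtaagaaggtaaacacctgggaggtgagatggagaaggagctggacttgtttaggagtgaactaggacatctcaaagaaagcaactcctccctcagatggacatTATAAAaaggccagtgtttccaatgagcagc
Flg: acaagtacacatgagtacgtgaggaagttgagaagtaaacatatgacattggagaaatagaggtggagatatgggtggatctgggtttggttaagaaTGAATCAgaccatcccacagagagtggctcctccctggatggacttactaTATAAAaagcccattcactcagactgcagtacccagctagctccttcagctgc
Crnn: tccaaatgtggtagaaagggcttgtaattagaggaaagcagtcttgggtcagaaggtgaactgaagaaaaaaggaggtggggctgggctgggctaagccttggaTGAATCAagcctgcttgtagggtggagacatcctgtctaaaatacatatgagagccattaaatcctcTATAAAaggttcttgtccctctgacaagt
Flg and Crnn each held a match to both motifs and Hrnr a TATA box match alone, which began 31 bases before the start. Among the 7 genes of the class, 5 held both motifs in this window, and Tchh held neither. Over the cluster, 34 of the 38 members have a promoter in the RefSeq table. Of these, 12 (35.3%) held TATAAA, against 9.96% of the 32851 promoters of that table, 9 (26.5%) held TGANTCA, against 5.48%, and 8 (23.5%) held both, against 0.843%. Each member was counted by the first promoter listed for it, while the 32851 include every listed promoter. A search for the C/EBP letters TTGCNNAA found 1 member, Lce3f (2.94%, against 7.47%), and one for the grainyhead letters AACCGGTT found 0 members, against 0.0822%. The 8 with both were Lor, Ivl, Crnn, Flg, Rptn, Sprr1a, Sprr1b and Sprr2h. Of these 8, 7 had a ratio below 1, and all, Sprr1a included, lay below the overall median ratio. Low ratios were common among members in any case: of all 38, 26 had a ratio below 1 and 28 lay below the overall median ratio. Hrnr and Tchh, which had the lowest ratios of the members, did not hold both motifs. Both motifs were found in 0 of 14 Lce promoters, although all Lce genes had a ratio below 1, and in 0 of 7 S100a promoters. No relation between motifs and ratio was tested. These matches are descriptions of letters and do not show that a factor binds there. The same stretches differ widely between genes, with Hrnr and Flg identical in 126 of 241 aligned columns.

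**Figure D2:**
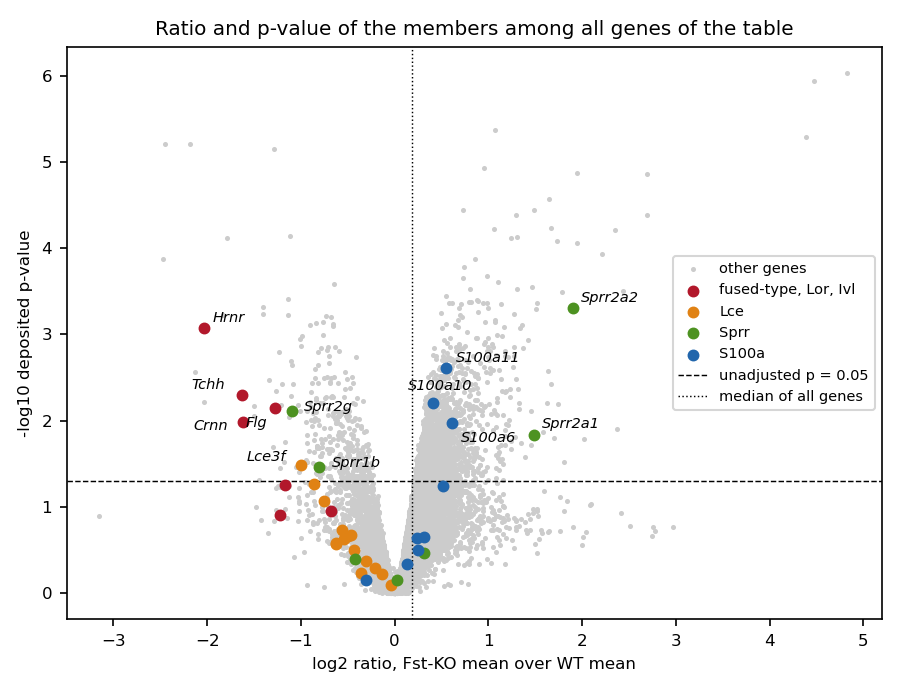
The log2 ratio of the libraries labelled Fst-KO over WT (horizontal axis) against the negative log10 of the deposited p-value (vertical axis) for all 15648 genes, with members coloured by subfamily and named where the unadjusted p was under 0.05. The 7 named members on the left include 4 fused-type genes led by Hrnr, and the 5 on the right are 2 Sprr2 and 3 S100a genes.

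All 15 Lce genes had the lower mean in the libraries labelled Fst-KO, in most cases with a high p-value. These genes encode short proteins, rich in cysteine and glycine, that join the envelope late. Their ratios ran from 0.4998 to 0.973, with a median of 0.709, which is 0.624 times the overall median ratio. Only Lce3f had an unadjusted p under 0.05, with means of 14.5 and 29.1, a ratio of 0.4998 and a p-value of 0.0328 (FDR 0.311, authors' deposited table). The Lce3 group of 6 genes had a median ratio of 0.641 and the Lce1 group of 9 genes a median of 0.723. Within Lce3, the ratios in the authors' deposited table were 0.553 for Lce3e, 0.595 for Lce3c, 0.689 for Lce3d, 0.743 for Lce3b and 0.780 for Lce3a. Lce3a had means of 38.01 and 48.8 and Lce3c of 24.6 and 41.3 (authors' deposited table). The highest ratio of the group thus still lay below 1.

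The 9 Lce1 genes were close to the lowest values that the table lists, with means over both groups of 1.198 to 2.59. Lce1a2 at 0.647, Lce1f at 0.648 and Lce1a1 at 0.679 stood lowest (authors' deposited table). Lce1d at 0.709, Lce1i at 0.723, Lce1h at 0.807, Lce1g at 0.867, Lce1l at 0.912 and Lce1b at 0.973 came next (authors' deposited table). The lowest p-value among these 9 was 0.185. Lce genes are alike in part of their sequence. Between 9.66% and 49.3% of the 50-base windows of their transcripts occurred in another gene, and Lce3f shared 41.1% with Lce3e. The table does not show how shared reads were divided, so the 15 Lce genes are uncertain as separate measurements, and 6 further annotated Lce genes are not in the table.

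The Sprr genes split in both directions, between near relatives and between neighbours. Sprr2a2 had a mean of 6.09 in the libraries labelled Fst-KO and 1.63 in WT, for a ratio of 3.73 (p-value of 0.000493, FDR 0.143, authors' deposited table). Sprr2a1 had means of 4.80 and 1.72, for a ratio of 2.80 (p-value of 0.0146, FDR 0.293, authors' deposited table). Both encode the same kind of short envelope precursor and are nearly identical: 96.5% of the 50-base windows of Sprr2a2 occurred in Sprr2a1. The 2 values are therefore not independent and may be counted as 1 locus. Their WT means were close to the lowest values that the table lists, so the size of both ratios is uncertain. With 1 added to both group means, the log2 ratio fell from 1.90 to 1.43 for Sprr2a2. For Sprr2a1 it fell from 1.48 to 1.09, and the means of Sprr2g, given next, were low as well. On the other side, Sprr2g, annotated as a polymorphic pseudogene, had means of 2.09 and 4.48, for a ratio of 0.468 (p-value of 0.00771, FDR 0.279, authors' deposited table). Sprr1b had means of 9.07 and 15.9, for a ratio of 0.572 (p-value of 0.0343, FDR 0.311, authors' deposited table). Sprr2g and Sprr1b shared no 50-base window with another gene.

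The Sprr genes with the highest listed means, on a scale that may not be per length, had ratios near those of most genes. Sprr3, the envelope precursor typical of oral and oesophageal epithelium, had means of 499.8 and 403, for a ratio of 1.24 (p-value of 0.344, authors' deposited table). Sprr1a had means of 364 and 358, for a ratio of 1.02 (p-value of 0.7001, authors' deposited table). The ratio of Sprr1a was 0.896 times the overall median ratio, so its direction depends on the scale. Sprr2h had a ratio of 0.743 (p-value of 0.402, authors' deposited table). The median ratio of the 7 Sprr genes was 1.02, which is 0.896 times the overall median ratio. On the log2 scale that median was 0.03, and it was -0.43 over the 5 Sprr genes other than the Sprr2a pair. Of the 15 annotated protein-coding Sprr genes, 9 are not in the table, most of them in the Sprr2 group.

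Promoter sequence is shown for 3 Sprr genes that lay at different ratios, in the same form as above. They lie at chr3:92438780-92438979 on the minus strand, chr3:92385485-92385684 on the plus strand and chr3:92250447-92250646 on the plus strand.
Sprr1b: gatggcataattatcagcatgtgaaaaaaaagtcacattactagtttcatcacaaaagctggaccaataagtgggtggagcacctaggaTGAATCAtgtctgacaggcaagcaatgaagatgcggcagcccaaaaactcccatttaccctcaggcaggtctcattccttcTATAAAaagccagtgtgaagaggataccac
Sprr2h: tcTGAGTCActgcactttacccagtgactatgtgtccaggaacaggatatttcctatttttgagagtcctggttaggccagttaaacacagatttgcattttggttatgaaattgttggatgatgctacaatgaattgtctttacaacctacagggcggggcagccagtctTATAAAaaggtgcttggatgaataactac
Sprr2a2: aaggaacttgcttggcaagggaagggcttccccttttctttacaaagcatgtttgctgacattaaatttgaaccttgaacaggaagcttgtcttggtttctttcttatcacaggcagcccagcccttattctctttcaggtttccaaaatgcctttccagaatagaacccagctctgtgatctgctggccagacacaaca
The stretch of Sprr2a1 was identical to that of Sprr2a2 in all 200 bases, so the pair that was higher cannot be told apart here by promoter either. Sprr1b and Sprr2h held both motifs, and the Sprr2a2 stretch held neither. Sprr2a2 and Sprr2h were identical in 111 of 237 aligned columns (46.8%). GENCODE places the start of Sprr2a2 elsewhere (92215920 on chromosome 3), so its stretch holds for the RefSeq start alone. The RefSeq gene Sprr1b reaches to 92438817, past the start used in the promoter table, so the 3′ end of the stretch printed for Sprr1b lies inside that gene.

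The S100a genes were mostly on the higher side, near the shift of all genes. The median ratio of the 9 was 1.24, which is 1.09 times the overall median ratio. S100a11, an annexin-binding calcium sensor that is also cross-linked into the cornified envelope, had means of 99.2 and 67.9, for a ratio of 1.46 (p-value of 0.00246, FDR 0.229, authors' deposited table). S100a10, the annexin A2 ligand, had means of 130.04 and 97.8, for a ratio of 1.33 (p-value of 0.00624, FDR 0.279, authors' deposited table). S100a6 (calcyclin), expressed in fibroblasts and epithelial cells, had means of 54.98 and 35.9, for a ratio of 1.53 (p-value of 0.0107, FDR 0.29, authors' deposited table). As multiples of the overall median ratio, S100a11, S100a10 and S100a6 stood at 1.29, 1.17 and 1.35. Of the windows of S100a11, 41.1% also occurred in the gene model Gm12854, so its value is less certain, while S100a10 and S100a6 shared none.

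The remaining S100a genes had p-values above 0.05. S100a13 had a ratio of 1.44 (p-value of 0.0573), S100a1 one of 1.24 and S100a4 one of 1.19 (authors' deposited table). S100a16, which is widely expressed in epithelia, had means of 161 and 136 and a ratio of 1.18 (authors' deposited table). S100a14, an epithelial member, had means of 228 and 208, a ratio of 1.10 (authors' deposited table), and lay at 0.964 times the overall median ratio. S100a7a, the mouse relative of psoriasin, was the single member of the family with a ratio below 1, at 0.807 with a p-value of 0.699 (authors' deposited table). S100a8 and S100a9, which neutrophils express at high levels, are not in the table, nor are S100a2, S100a3 and S100a5. Neutrophil markers were almost absent as well: 12 of 14 listed are not in the table, and the others were Ltf at 2.54 and Lcn2 at 1.13 (authors' deposited table), with summed levels of 24.8 and 10.4.

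Mesenchyme and macrophage markers stood on the same side as the S100a genes. All 10 mesenchyme markers had a ratio above 1, as had 81.0% of all genes, with a median of 1.32, which is 1.16 times the overall median ratio, and summed levels of 6349 in the libraries labelled Fst-KO and 4749 in WT. Of these, 5 were higher at an unadjusted p under 0.05 (13.4% of all genes were), led by Col1a1 at 1.40 (authors' deposited table). All 10 macrophage markers also had a ratio above 1, with a median of 1.31, or 1.15 times the overall median ratio, and summed levels of 93.4 and 67.9, and 3 were higher at an unadjusted p under 0.05, against the same 13.4% of all genes. Their part in the S100a values was not tested. For comparison with the fused type, the stretch before the start of S100a11 (chr3:93520296-93520495, plus strand), the next protein-coding gene of the table after Tchh, is shown in the same form.
S100a11: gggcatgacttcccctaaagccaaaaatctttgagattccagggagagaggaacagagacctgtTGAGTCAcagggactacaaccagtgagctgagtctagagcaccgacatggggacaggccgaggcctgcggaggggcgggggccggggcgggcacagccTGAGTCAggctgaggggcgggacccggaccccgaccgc
It held 2 AP-1 matches and no TATAAA. GENCODE places the start of S100a11 at 93520488, so the 3′ end of this stretch lies inside that gene model.

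The subfamilies occupy different places in the cluster. The members span 3.05 Mb of chromosome 3, from 90511034 (S100a1) to 93564643 (S100a10) on mm10. In the order of annotated genes, 25 consecutive genes of the table, from 2310046K23Rik (92532505) to Tchh (93449077), had a ratio below 1. They comprise 21 members and 4 other genes: 2310046K23Rik at 0.944, Kprp, a keratinocyte proline-rich protein, at 0.602, 2310050C09Rik at 0.638 and Crct1, a cysteine-rich protein, at 0.865 (authors' deposited table). None of these 4 had an unadjusted p under 0.05. The ratio switched to 1.46 at S100a11, which begins 71.4 kb after the end of Tchh. At the opposite end, 6 of the 7 S100a genes before Lor had a ratio above 1. Of the 12 genes of the table that flank the cluster, 6 on each side, the ratios ran from 0.818 to 1.39. Of these 12, 1 had an unadjusted p under 0.05, on the higher side. At that limit 13.4% of all genes were higher and 2.17% lower. This run was noticed after the values were seen, and neighbouring members are also relatives.

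**Figure D3:**
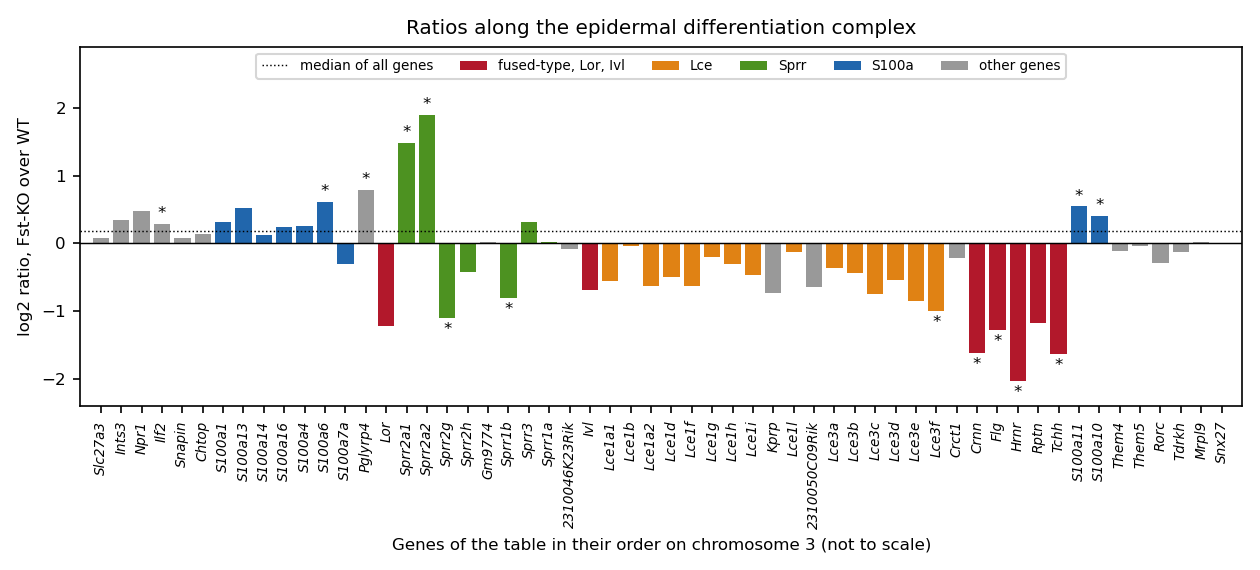
The log2 ratio of the libraries labelled Fst-KO over WT (vertical axis) for 56 genes of the table in their order along chromosome 3, with members coloured by subfamily, other genes in grey and a star for an unadjusted p under 0.05. Bars point down without a break from 2310046K23Rik to Tchh, while S100a genes at both ends point up except S100a7a.

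Genes outside the cluster that take part in the same process were mostly below the overall median ratio, with no p-value under 0.05. Of 30 listed cornification partners 28 are in the table, among them the cross-linking transglutaminases, envelope plakins, desmosomal cadherins and lipid-barrier enzymes. Their median ratio was 0.873, which is 0.769 times the overall median ratio. By the authors' gene-specific analysis, 0 of them had an unadjusted p under 0.05 in either direction. Of all genes, 13.4% were higher and 2.17% lower at that limit. Of the 28, 18 had a ratio below 1, against 19.0% of all genes, and 23 lay below the overall median ratio. The desmosomal genes Dsp and Dsg1a, which had the highest means of the list, had ratios of 1.08 and 1.03 (authors' deposited table). Dsc1, a desmosomal cadherin, and Cdsn, corneodesmosin, had ratios of 0.488 and 0.568 with p-values of 0.147 and 0.235 (authors' deposited table). Krt10, the suprabasal keratin of keratinised epithelium, had the lowest ratio of the list, 0.423, from means of 43.5 and 103 (p-value of 0.0571, authors' deposited table). The highest ratio was that of Krtdap, 1.76, from means of 76.5 and 43.6 (p-value of 0.396, authors' deposited table). Spink5 came next at 1.39 (p-value of 0.177, authors' deposited table), and in all 10 of the 28 had a ratio above 1. The transglutaminase genes Tgm3 and Tgm1 had ratios of 0.880 and 1.05 (authors' deposited table). The 5 fused-type genes, at 0.244 to 0.443, lay below both of these cross-linking enzymes, and this difference was not tested.

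Keratin genes elsewhere in the genome lay on both sides. All 8 of the filiform and hard keratins in the table had a ratio below 1, against 19.0% of all genes. Their median was 0.611 and their summed levels were 624 and 945. At an unadjusted p under 0.05, 1 of the 8 was lower, against 2.17% of all genes. It was Krt33b at 0.483, from means of 1.203 in the libraries labelled Fst-KO and 2.487 in WT (p-value of 0.0345, authors' deposited table). Those means were close to the lowest values that the table lists. Means were also low for Krt31 (1.357 and 2.232), Krt83 (1.315 and 2.144) and Krt81 (2.006 and 4.806, authors' deposited table). Krt84 and Krt36, keratins of the filiform papillae, had means of 358 against 557 and 233 against 333, with ratios of 0.643 and 0.701 (authors' deposited table). The 7 suprabasal oral keratins had a median of 1.14, close to that of all genes, with 4 above 1 and 3 below. Krt76 and Krt24 had ratios of 0.228 and 0.466 with p-values of 0.00277 and 0.00201, and Krt4 and Krt13 ratios of 1.80 and 1.32 with p-values of 0.0562 and 0.194 (authors' deposited table). All 7 basal-layer markers had a ratio above 1, as had 81.0% of all genes, with a median of 1.28, which is 1.13 times the overall median ratio, and summed levels of 5402 and 3772. Of these, 3 had an unadjusted p under 0.05, against 13.4% of all genes on the higher side: Krt5, Krt14 and Itga6, at 1.53, 1.47 and 1.24 (authors' deposited table). The lowest FDR of the list was 0.302. Their part in the values of the members was not tested.

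Of 19 transcription factors of keratinocyte differentiation, 17 are in the table. Their median ratio was 1.03, which is 0.906 times the overall median ratio, and at an unadjusted p under 0.05 there were 2 of 17 on the higher side and 0 on the lower, close to the 13.4% and 2.17% of all genes. These 2 were Barx2 at 1.59 and Elf3 at 1.52 (authors' deposited table). Among the other genes of the region, 4 of 8 listed are in the table, 3 of them with a ratio below 1, and Pglyrp4, a secreted peptidoglycan-binding protein, was the one with an unadjusted p under 0.05, at 1.73 from means of 1.63 and 0.942 (authors' deposited table). The single S100 gene outside the cluster that is in the table, S100b, had a ratio of 1.30 (p-value of 0.124, authors' deposited table). Of 12 skeletal muscle markers, 10 had a ratio below 1 and 2, Myh3 at 1.21 and Myod1 at 1.27, above it (authors' deposited table). Their median was 0.742 and their summed levels were 9971 and 13629, and 3 were lower at an unadjusted p under 0.05, against 2.17% of all genes. Schwann cell and endothelial markers had medians of 1.26 and 1.014.

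**Figure D4:**
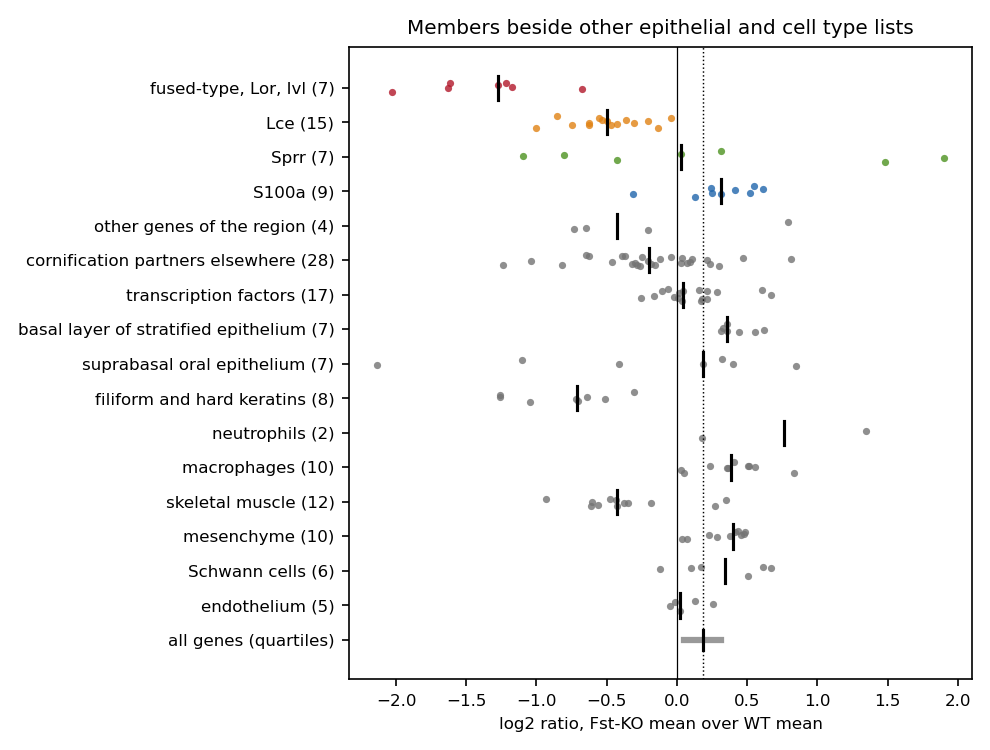
The log2 ratio of the libraries labelled Fst-KO over WT for each gene (points) of the 4 member subfamilies (coloured) and of other lists (grey), with the number of genes in brackets, black bars for medians and the quartiles of all genes at the bottom; the dotted line is the median of all genes. Of the lists drawn, the fused-type class has the lowest median, filiform and hard keratins follow, and basal, mesenchyme and macrophage markers lie to the right.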

How the data were processed

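RNA of 3 WT and 3 Fst-KO libraries was sequenced. Per the submitters' processing notes, BWA 0.7.12 and Partek were used with mm10; how reads were counted and normalised is not stated there. The authors deposited group means of a normalised signal, headed as least-squares means. The ratio, p-value and FDR were deposited by the authors from Partek's gene-specific analysis. For all 15648 genes, adjusting the p-values by Benjamini-Hochberg gave the deposited FDR, and the ratio was the quotient of the means (relative tolerance 1e-06). The deposited column of total counts holds 3 times the sum of both means, a signal and not reads, so the depth per library is unknown and no interval could be given. The table calls the mutant group "mutant", taken as Fst-KO. Levels were not compared between genes per length, since the scale is unknown.

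The members, lists and thresholds were chosen with earlier results of these data known. The motifs searched and the promoters printed were also chosen with the values known. All members are named; those with an unadjusted p under 0.05, and the 2 most abundant of each subfamily, are given with their means. Of other lists, up to 3 members with such a p and the largest difference are named, or the 2 most abundant. Krt10, Krtdap, Spink5, Tgm1, Tgm3, Dsc1, Cdsn, Krt31, Krt33b, Krt81, Krt83, Krt4, Krt13, Myh3 and Myod1 were chosen after their values were seen. So were the 4 other genes in the run along the cluster. The lists of cell type markers and pathways hold no test of their own, and 1 gene of the list of transcription factors is not reported here. Positions and transcripts are from GENCODE M21, starts from RefSeq (GRCm38.p6). The adjustment was tested on simulated data. Analyses used Python 3.11.15, pandas 2.3.3, numpy 2.4.6 and Biopython 1.88.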

Additional observations from a re-analysis of the deposited data

How the results depend on the processing

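No paired analysis was possible because the table holds no value per library; for the same reason leaving out each replicate and DESeq2 were not run. The absence of members past an FDR of 0.05 held when p-values were adjusted over the more abundant genes alone, and 3 members passed an FDR of 0.25 (1.58% of all genes did). The 7 lower and 5 higher members at an unadjusted p under 0.05 kept their direction relative to the median of all genes. They became 4 and 3 at a p under 0.01, against 0.786% and 2.7% of all genes. Among the 18 members at or above the median level of all genes (16.1) they were 4 and 3. They were also 4 and 3 among the 16 members that are neither Sprr nor Lce. Over the 16 members with no shared 50-base window, chosen after seeing the data, they were 5 and 2. At a p under 0.05, 2.17% of all genes were lower and 13.4% higher. These shares were not computed for genes at or above the median level alone.

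Median log2 ratios were -0.43 for all members, -1.27 for the fused-type and single envelope class, -0.50 for Lce, 0.03 for Sprr and 0.31 for S100a. With the median ratio of all genes set to 1 they were -0.61, -1.46, -0.68, -0.16 and 0.13, so Sprr turned negative. A pseudocount of 10 gave -0.093 for all members, -1.14, -0.10 for Lce and 0.13 for S100a, and a pseudocount of 1 gave -0.35 for Lce. Among more abundant members the medians were -1.62 for the fused-type class, -0.75 for Lce and 0.17 for Sprr. Means in place of medians gave -1.38 for that class and 0.198 for Sprr. Without Sprr and Lce genes the median of the members was -0.089. Over members with no shared window it was -0.20, with -1.62 for the fused-type class and -0.43 for Sprr, which turned negative once the Sprr2a pair was left out. Of single members, S100a14 and Sprr1a turned to -0.052 and -0.16 relative to the median of all genes; all other members kept their direction there and with a pseudocount of 1. The cause of these shifts was not tested. Depth limits cannot be given, and the 10 members with both means under 3 are the least certain.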
